A study of Homo sapiens with 9 samples.

Results

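Cells divide by assembling a spindle of microtubules, attaching each chromosome to it through a kinetochore, and splitting once the attachments have passed a checkpoint. The genes described here encode that machinery, and they were taken by gene symbol from a list of 48 kinetochore, spindle, chromosome condensation and mitotic kinase genes. All 48 were found among the 22295 entries of the expression table, 19932 of which carry a gene symbol. In dividing cells, most genes of this kind are transcribed late in the cycle, in G2 and mitosis, and are kept low in resting cells. Their transcription depends on the factors FOXM1 and B-MYB and on the MuvB proteins, which read a short promoter element named the cell cycle genes homology region (CHR), often beside CCAAT boxes bound by NF-Y. Their mRNA levels are used as a readout of how much of a tumour cell population is in cycle.

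The samples were 9 RNA-seq libraries of U251, an established human glioblastoma cell line, in 3 groups of 3. The groups were cells infected with a lentivirus carrying a control sh-RNA against luciferase and collected at 3 days post infection (sh-Luci-3d), and cells infected with a lentivirus carrying an sh-RNA against PTBP1, an RNA-binding protein that represses neuronal splicing, and collected at 3 or 7 days post infection (sh-Ptbp1-3d and sh-Ptbp1-7d). The virus carried an M-cherry marker. In the study's reprogramming protocol, infected cells were moved at day 2 to neuronal induction medium with forskolin and dorsomorphin. Under that protocol the cells of day 7 had spent longer in this medium. The sample labels and the study's passages on sequencing do not name the medium. No sh-Luci library of day 7 was analysed here, and in every comparison with sh-Ptbp1-7d the knockdown and the additional days cannot be told apart. Below, the sh-Luci-3d libraries are called the controls, and the sh-Ptbp1-3d and sh-Ptbp1-7d libraries the knockdown cells at day 3 and at day 7. Levels are FPKM, sequenced fragments divided by transcript length and by library size. Since FPKM does not show the depth of a library, counting error could not be given.

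The libraries were checked against their labels. PTBP1 was at 111, 112 and 124 FPKM in the controls, 66.2, 64.4 and 61.0 FPKM at day 3 and 49.7, 50.7 and 51.0 FPKM at day 7, without overlap between the 3 groups. Of 8 astroglial and glioma markers, 5 were above 1 FPKM in all 9 libraries, among them VIM and SOX2, while GFAP stayed between 0.109 and 1.15 FPKM. Summed, they lay between 4459 and 4586 FPKM in the controls, between 4583 and 4879 FPKM in the knockdown cells at day 3 and between 1387 and 1510 FPKM at day 7, where VIM makes up most of the sum. Of 6 neuronal markers, TUBB3 and MAP2 were above 1 FPKM in all 9 libraries, and of 5 blood and immune cell markers CD68 was. The neuronal sum was 264 to 315 FPKM in the controls, 333 to 352 FPKM at day 3 and 153 to 161 FPKM at day 7. TUBB3 makes up most of that sum, and MAP2 went the other way. MAP2 was at 18.9, 18.1 and 24.1 FPKM at day 3 and 41.4, 41.2 and 34.0 FPKM at day 7. The blood and immune sum was 9.58 to 10.9, 10.3 to 10.9 and 15.5 to 17.9 FPKM. CD68 makes up nearly all of that sum, and PTPRC, the next highest, was at most 0.0903 FPKM. The part of these shifts in the values below was not tested. STMN2, a neuronal marker, was at 11.5 FPKM in sh-Ptbp1-3d replicate 3 and listed at 0 in the other 8 libraries. In the same replicate DCX was at 2.14 FPKM, against at most 0.0346 FPKM elsewhere, and FABP7 at 15.0 FPKM, against 0.637 to 2.19 FPKM. Counts are therefore also given without sh-Ptbp1-3d replicate 3.

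Seen as a whole, the mitotic genes were at similar levels in both groups of day 3 and far lower at day 7. Their summed level was 1599, 1606 and 1489 FPKM in the controls and 1504, 1550.1 and 1469 FPKM in the knockdown cells at day 3. At day 7 it was 649, 660.4 and 643 FPKM. The day 7 sum of 651 ± 8.85 FPKM (SD, n = 3) was 43.2% of the day 3 sum of 1508 ± 40.7 FPKM (SD, n = 3). As a share of all FPKM in a library, the 48 genes held 0.399% ± 0.0248 in the controls, 0.378% ± 0.00523 at day 3 and 0.175% ± 0.00519 at day 7 (SD, n = 3 each). For every one of the 48 genes, all 3 sh-Ptbp1-7d libraries were below all 6 libraries of day 3. Of all genes tested, 27% were lower without overlap against sh-Ptbp1-3d and 23.1% against sh-Luci-3d. The share of all genes below both groups at once was not counted. In these bulk libraries, fewer dividing cells and less of these mRNAs per cell cannot be told apart.

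**Figure D1:**
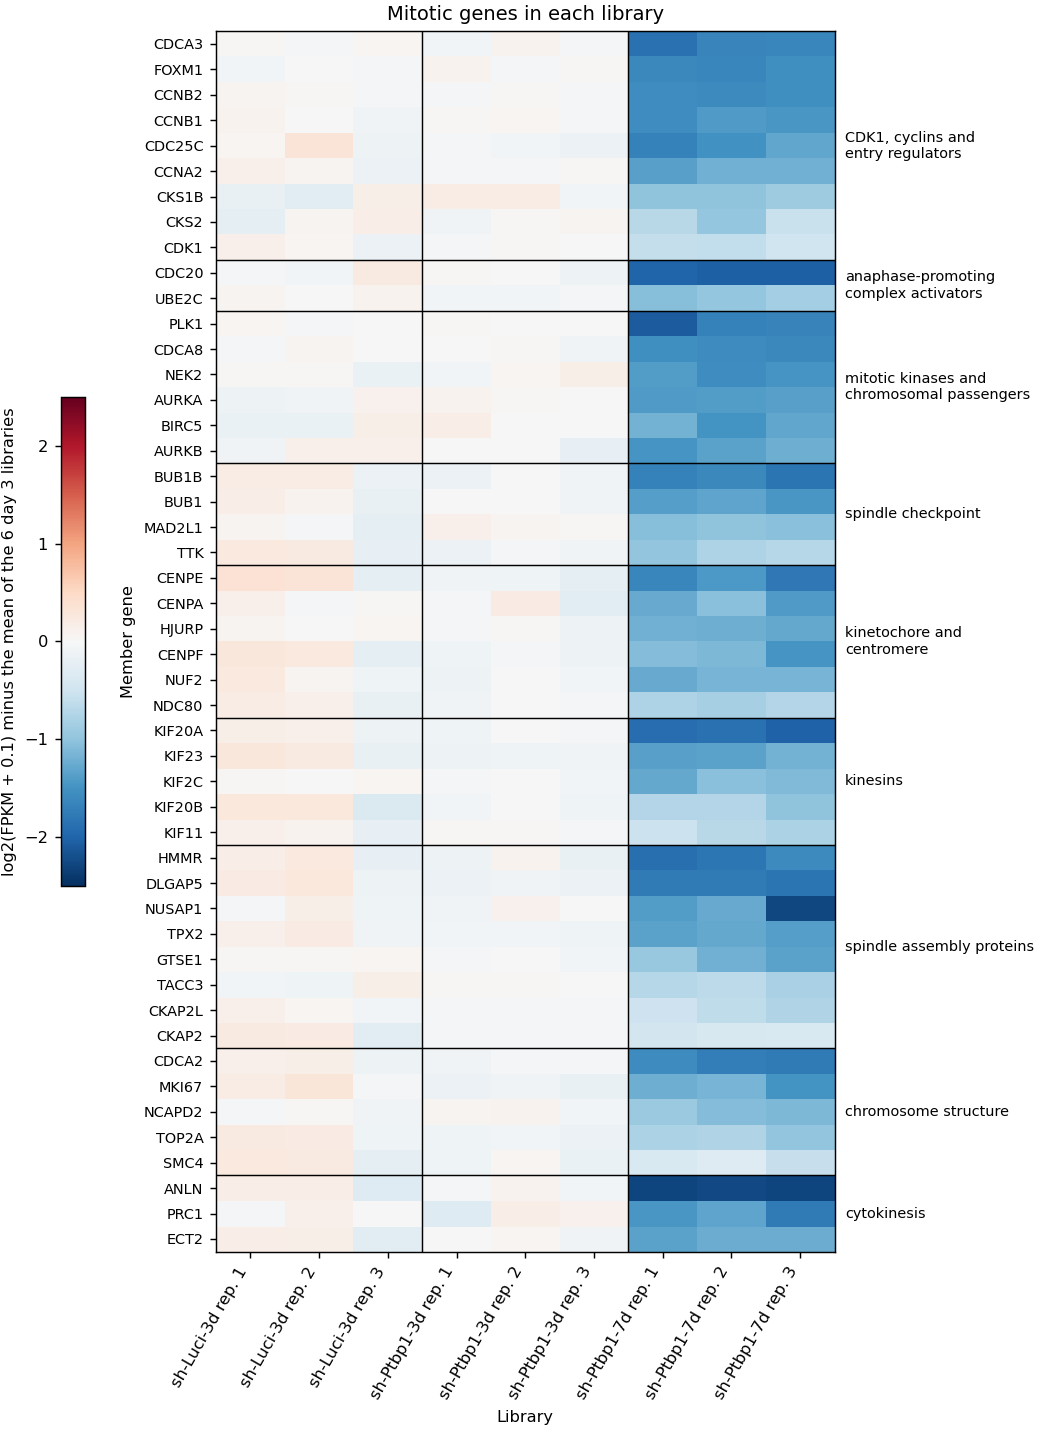
Heat map of log2(FPKM + 0.1) of the 48 mitotic genes (rows, by role) in the 9 libraries (columns), each gene as its difference from its own mean over the 6 libraries of day 3. The 3 sh-Ptbp1-7d columns are blue in every row, and the 6 columns of day 3 stay close to 0, with sh-Luci-3d replicate 3 below replicates 1 and 2 for 31 of the 48 genes.

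Before the values, the promoters of some of these genes are shown, because the CHR and CCAAT elements are what many of them are known to share. RefSeq start windows (GRCh38.p14, 250 bases before to 50 after an annotated start) were at hand for 41 of the 48 genes, as 48 windows. The windows printed here belong to the genes with the most and the least negative day 7 changes in 3 role groups, and to ANLN, CDC20 and PLK1, which had the most negative changes in their own groups. All are written 5′ to 3′ on the strand of the gene. Capitals mark the CHR, searched as TTTGAA or TTCGAA on both strands, so that TTCAAA is a match too, and the CCAAT box, searched as CCAAT on both strands, so that ATTGG is a match too.
ANLN, chr7:36389612-36389911, plus strand: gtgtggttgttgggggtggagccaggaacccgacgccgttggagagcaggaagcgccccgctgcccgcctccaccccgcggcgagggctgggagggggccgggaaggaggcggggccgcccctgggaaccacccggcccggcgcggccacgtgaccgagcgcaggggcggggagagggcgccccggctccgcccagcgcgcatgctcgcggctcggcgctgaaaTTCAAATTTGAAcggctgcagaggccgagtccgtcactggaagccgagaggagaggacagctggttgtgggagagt
CDC20, chr1:43358731-43359030, plus strand: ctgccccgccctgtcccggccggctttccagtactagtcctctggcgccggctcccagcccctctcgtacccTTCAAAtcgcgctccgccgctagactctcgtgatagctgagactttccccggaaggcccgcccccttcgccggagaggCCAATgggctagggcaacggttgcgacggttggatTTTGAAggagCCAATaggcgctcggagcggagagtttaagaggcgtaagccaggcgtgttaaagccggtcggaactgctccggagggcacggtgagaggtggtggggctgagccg
PLK1, chr16:23678639-23678938, plus strand: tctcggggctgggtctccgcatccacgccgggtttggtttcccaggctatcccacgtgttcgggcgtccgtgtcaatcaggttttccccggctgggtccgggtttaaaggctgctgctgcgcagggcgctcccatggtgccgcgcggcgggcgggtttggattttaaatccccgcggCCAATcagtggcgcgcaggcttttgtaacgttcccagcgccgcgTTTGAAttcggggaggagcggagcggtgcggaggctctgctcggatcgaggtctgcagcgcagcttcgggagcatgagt
KIF20A, chr5:138178862-138179161, plus strand: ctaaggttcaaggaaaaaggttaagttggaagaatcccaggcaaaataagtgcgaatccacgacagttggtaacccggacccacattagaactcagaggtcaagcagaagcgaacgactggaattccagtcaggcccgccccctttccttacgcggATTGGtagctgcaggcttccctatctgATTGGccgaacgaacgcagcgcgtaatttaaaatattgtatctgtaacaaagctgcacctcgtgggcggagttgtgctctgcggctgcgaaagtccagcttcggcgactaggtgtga
KIF11, chr10:92592880-92593179, plus strand: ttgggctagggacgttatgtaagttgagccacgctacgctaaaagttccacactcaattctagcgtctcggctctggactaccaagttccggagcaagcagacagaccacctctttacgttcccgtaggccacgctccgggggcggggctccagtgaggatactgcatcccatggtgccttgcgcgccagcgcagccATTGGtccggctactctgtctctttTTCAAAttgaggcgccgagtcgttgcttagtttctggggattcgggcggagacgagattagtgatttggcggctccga
HMMR, chr5:163460382-163460681, plus strand: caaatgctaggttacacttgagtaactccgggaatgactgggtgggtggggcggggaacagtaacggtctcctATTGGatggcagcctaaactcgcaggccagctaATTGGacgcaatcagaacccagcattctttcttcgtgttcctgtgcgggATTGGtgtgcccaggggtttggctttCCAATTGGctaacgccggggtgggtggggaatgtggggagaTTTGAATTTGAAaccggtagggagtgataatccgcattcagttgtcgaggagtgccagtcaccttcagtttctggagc
CKAP2, chr13:52455738-52456037, plus strand: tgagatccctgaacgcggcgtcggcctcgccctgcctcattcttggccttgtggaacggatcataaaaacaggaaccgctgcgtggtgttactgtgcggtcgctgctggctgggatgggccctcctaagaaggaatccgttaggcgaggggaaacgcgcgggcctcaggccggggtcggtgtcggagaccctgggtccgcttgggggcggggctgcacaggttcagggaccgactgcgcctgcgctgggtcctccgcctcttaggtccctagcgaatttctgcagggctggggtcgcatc
CENPE, chr4:103198294-103198593, minus strand: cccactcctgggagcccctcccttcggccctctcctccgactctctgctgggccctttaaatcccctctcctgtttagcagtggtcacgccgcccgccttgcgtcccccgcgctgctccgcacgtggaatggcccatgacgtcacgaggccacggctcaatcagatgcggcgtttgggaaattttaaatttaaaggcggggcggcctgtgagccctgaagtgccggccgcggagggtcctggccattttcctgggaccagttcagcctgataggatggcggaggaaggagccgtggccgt
NDC80, chr18:2571307-2571606, plus strand: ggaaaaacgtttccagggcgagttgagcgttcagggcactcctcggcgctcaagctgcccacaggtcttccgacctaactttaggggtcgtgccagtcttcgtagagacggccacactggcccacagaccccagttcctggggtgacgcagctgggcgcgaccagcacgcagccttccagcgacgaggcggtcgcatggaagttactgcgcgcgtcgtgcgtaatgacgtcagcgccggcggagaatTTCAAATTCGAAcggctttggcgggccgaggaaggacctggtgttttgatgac

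A CHR match lay in 35 of the 48 windows (72.9%), against 16.4% of all 35116 RefSeq start windows. Within 50 bases of the start on either side it lay in 27 of 48 (56.3%), against 5.01% of all windows. CCAAT matches were in 35 of 48 windows (72.9%), against 34.6% of all windows, and at least 2 of them in 23 of 48, against 10.8%. The E2F site of the S phase genes, searched as TTTGGCGC or TTTCGCGC on both strands, was in 3 of 48 windows (6.25%), against 1.15% of all. Of these 3 windows, 2 are overlapping windows of CDK1 that hold the same site, and the other belongs to NUSAP1. Over the 15835 windows of genes tested, the shares were 12.2% for CHR and 3.63% for CHR within 50 bases of the start. They were 34.9% for CCAAT, 12.1% for at least 2 CCAAT matches and 1.83% for E2F. CHR matches also lay in 11 of 12 windows of other mitotic kinesins and spindle proteins, 4 of 7 of other condensin subunits, 13 of 25 of other mitotic regulators and 11 of 28 of other kinetochore subunits. In the windows of 35 DNA replication genes a CHR match was in 1 of 44 and an E2F match in 11 of 44. CCAAT matches were in 25 of these 44, and at least 2 of them in 14. In the 4 mitotic lists, CCAAT matches were in 18 of 28 windows of other kinetochore subunits and 8 of 12 of other kinesins and spindle proteins. They were in 15 of 25 of other mitotic regulators and 2 of 7 of other condensin subunits. The windows of a gene can overlap, and 5 of the 41 genes had more than one. A match is a description of letters and was not tested as a binding site.

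In the printed windows, ANLN had 2 abutting CHR matches at -26 and -20 from the start. HMMR had a similar pair at -28 and -22 with 5 CCAAT matches upstream, of which the last pair overlap as CCAATTGG. NDC80 held such a pair at -3 and 4, and KIF20B, whose window is not printed, at 25 and 31. For day 7 against day 3, log2 fold changes were -2.28 for ANLN, -1.69 for HMMR, -0.74 for NDC80 and -0.77 for KIF20B. PLK1 had a CCAAT match at -73 and a CHR match at -29. KIF20A held CCAAT matches at -94 and -67 and no CHR match, while KIF11 held one of each. CKAP2 and CENPE had neither. For day 7 against day 3, log2 fold changes had a median of -1.19 over the 32 genes with a CHR match (range -2.28 to -0.35) and of -1.29 over the 9 genes with a window and no match (range -1.88 to -0.37). These ranges overlap almost wholly, and the difference was not tested. No match means that neither TTTGAA nor TTCGAA was found on either strand, and other forms of the element were not searched.

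**Figure D2:**
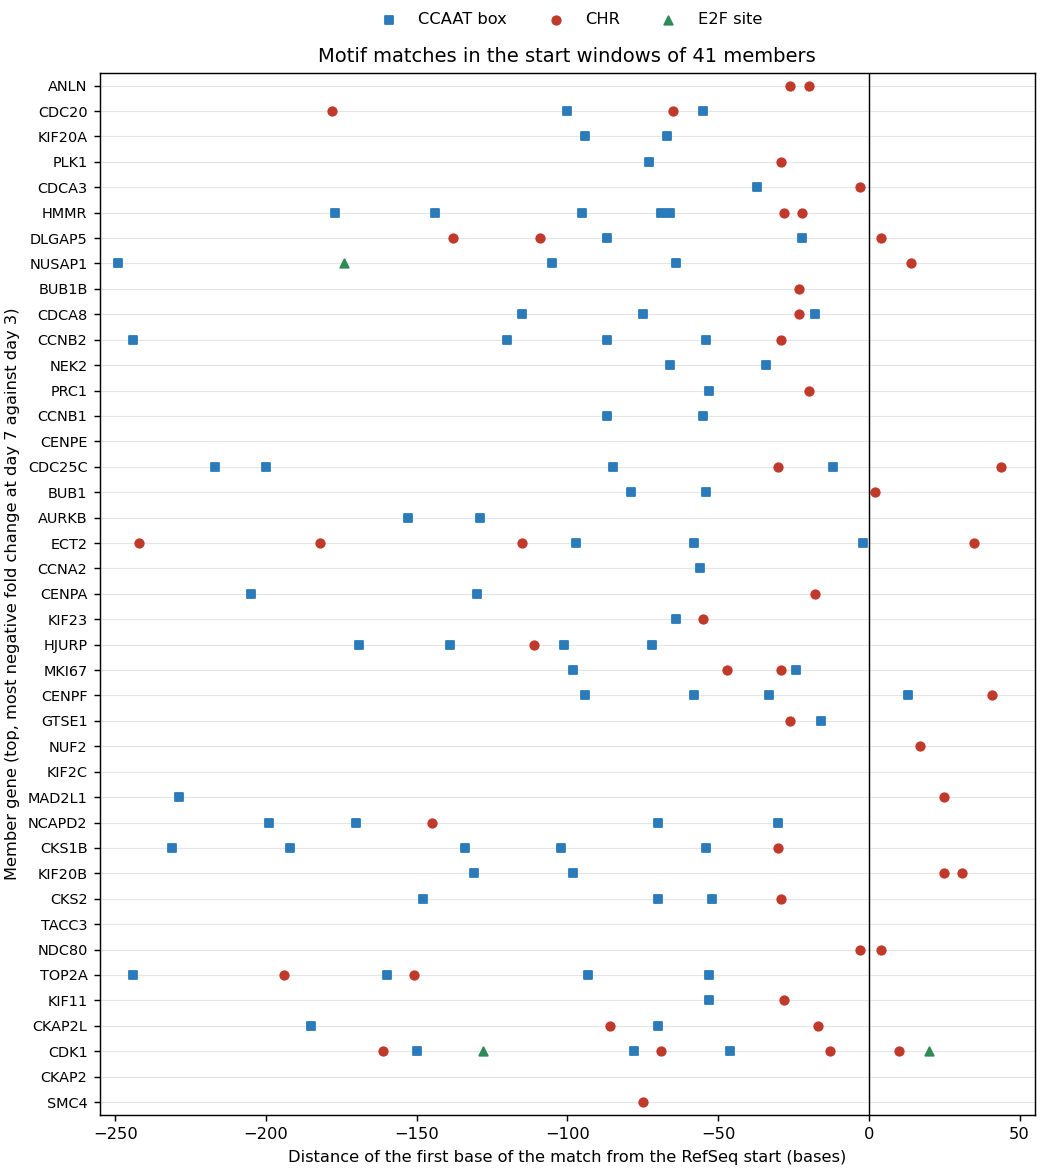
Positions of CHR matches (red circles), CCAAT matches (blue squares) and E2F matches (green triangles) in the start windows of 41 mitotic genes, in bases from the RefSeq start, with genes ordered from the most negative change at day 7 against day 3 (top) to the least. CHR matches crowd within 50 bases of the start and CCAAT matches lie mostly upstream of them, in genes at the top and at the bottom alike. Where a gene has overlapping windows, one site can appear at 2 positions.

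The first comparison asked what the knockdown had done by day 3. The thresholds were a fold change above 2 and a false discovery rate (FDR) in limma below 0.05. Relative to the controls, 0 of the 48 mitotic genes passed both in the knockdown cells at day 3, and 0 passed the FDR alone, in either direction. Over all 15551 genes tested, 0% passed both thresholds on the lower side and 0.0129% on the higher side, and 0.0129% passed the FDR alone and were lower, 0.0193% higher. The study itself, with its own method, reported far more genes that differed between these groups at the same thresholds. Log2 fold changes of the 48 ranged from -0.29 (MKI67) to 0.20 (CKS1B), with a median of -0.07, against 0.01 for all genes. They were negative for 35 of 48, against 47.5% of all genes. At an unadjusted p under 0.05, 2 of the 48 were lower and 0 were higher, against 2.89% and 4.35% of all genes. The libraries of both groups did not overlap for 3 of the 48, MKI67, UBE2C and GTSE1, all lower in the knockdown cells, against 4.93% of all genes on the lower side. On the higher side this was so for 0 of the 48, against 5.86% of all genes.

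MKI67, the gene of the proliferation antigen Ki-67, which coats mitotic chromosomes, had the smallest p of the 48. It was at 22.2, 24.3 and 19.0 FPKM in the controls and 17.6, 18.5 and 17.1 FPKM in the knockdown cells (log2 fold change -0.29, standard error 0.114, limma adjusted p = 0.623). DLGAP5, which stabilises the microtubules that hold kinetochores, was at 27.6, 28.8 and 21.8 against 21.7, 22.5 and 21.7 FPKM (log2 fold change -0.24, standard error 0.104, limma adjusted p = 0.679), and TOP2A, the topoisomerase that untangles sister chromatids, at 68.7, 68.0 and 54.3 against 54.4, 55.9 and 53.3 FPKM (log2 fold change -0.21, standard error 0.102, limma adjusted p = 0.71). In DLGAP5 and TOP2A the third control library lay next to the knockdown libraries and the other two lay above them.

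The calls of this comparison depended on that library, sh-Luci-3d replicate 3. It lay below both other controls for 31 of the 48 genes and above both for 11, with a median log2 difference from their mean of -0.23. Without it, 6 of the 48 passed the FDR and were lower, and 0 were higher. Of the 15582 genes tested in that fit, 211 passed the FDR lower and 782 higher. With all libraries, 2 of all genes passed it lower and 3 higher. Both thresholds were passed by 0 of the 48 without that library, against 22 of all genes lower and 37 higher. The 6 were CENPE (log2 fold change -0.48), KIF23 (-0.36), DLGAP5 (-0.36), TOP2A (-0.33), CKAP2 (-0.26) and TPX2 (-0.25), with limma adjusted p-values from 0.0158 to 0.0429.

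The second comparison followed the knockdown cells from day 3 to day 7. All 48 mitotic genes had a negative log2 fold change, against 44.1% of all genes. The libraries did not overlap for 48 of 48, against 27% of all genes that were lower at day 7 without overlap. Here the FDR had to be below 0.01. With more than 2-fold change, 36 of 48 passed on the lower side and 0 on the higher side, where 5.9% of all genes passed lower and 8.31% higher. The FDR alone was passed by 46 of 48, all lower, against 15.5% of all genes lower and 20.3% higher. The median log2 fold change was -1.24, a level of 0.423 of that at day 3, while the median of all genes was 0.09. Changes spread from -2.28 (ANLN) to -0.35 (SMC4), and 15 genes were below -1.5. The spread between genes was wider than their standard errors, which lay between 0.0689 and 0.213. Without sh-Ptbp1-3d replicate 3, 36 of 48 passed both thresholds and the median was -1.28. In that fit, 918 of 15511 genes passed both thresholds lower and the median of all genes was 0.07. Across the 48 genes, which share the same libraries, Spearman's rho of the change was -0.09 with the level at day 3 and 0.11 with transcript length, both weak.

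**Figure D3:**
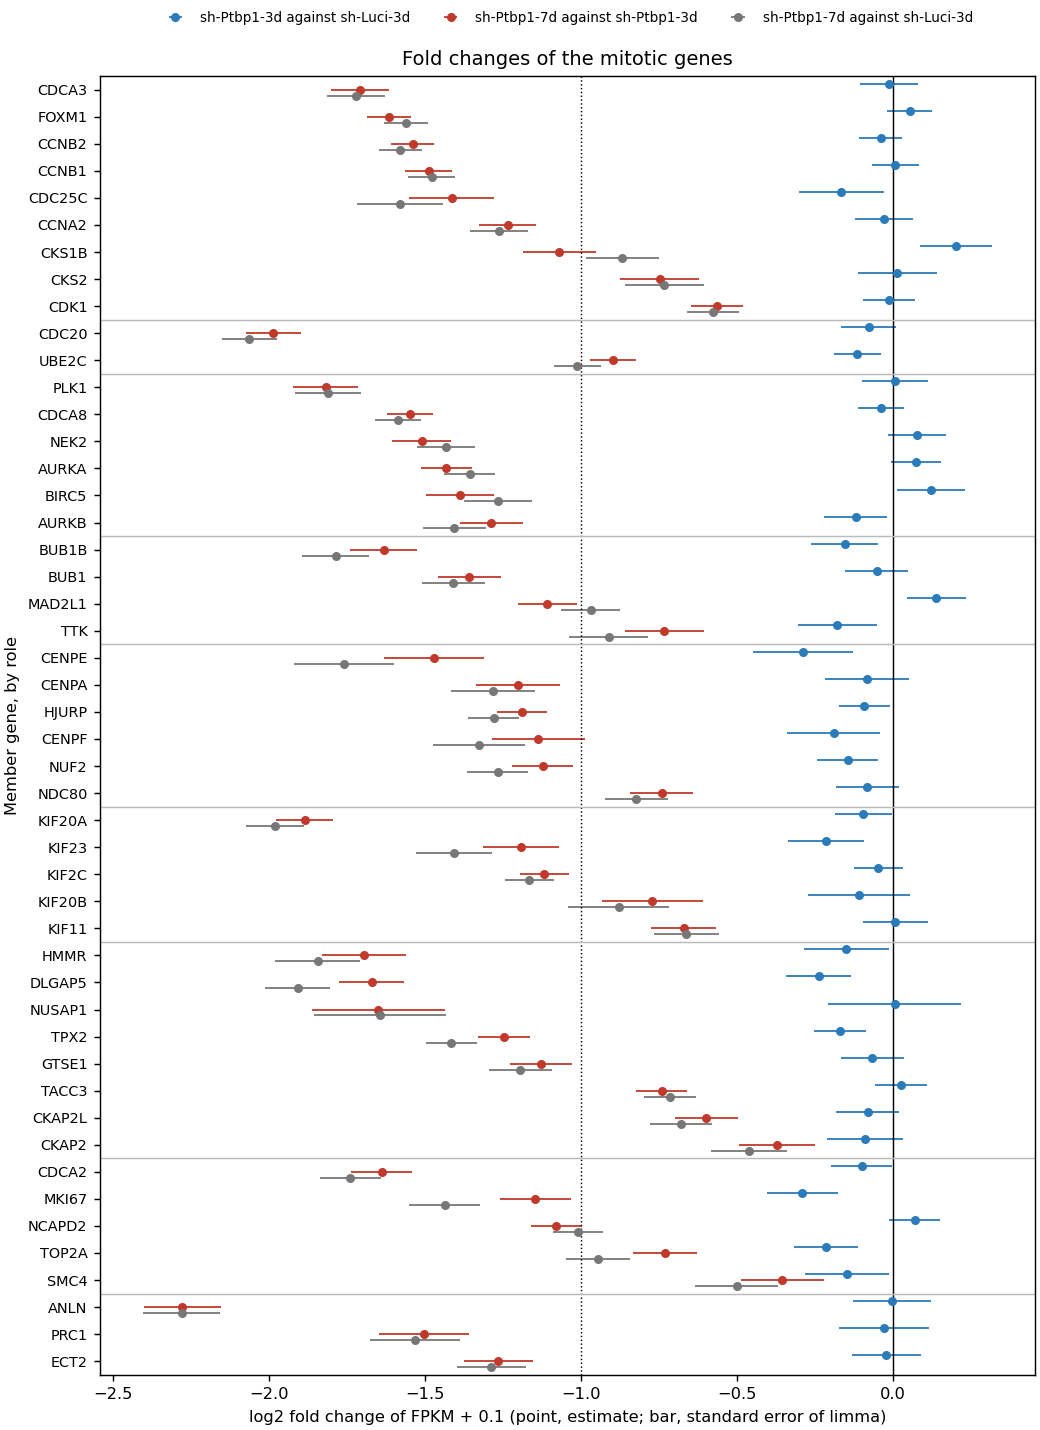
Log2 fold changes of the 48 mitotic genes, by role, with points for the limma estimates and bars for their standard errors, for the knockdown at day 3 against the controls (blue), day 7 against day 3 of the knockdown (red) and day 7 against the controls (grey). Blue points lie around 0 and 36 red points lie beyond the dotted line, which marks a fold change of 2. The red and grey points share the libraries of day 7.

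CDK1 and its cyclins start mitosis, and 9 genes of this role were measured. All 9 were lower past the FDR at day 7 and 7 of them fell more than 2-fold, with a group median log2 fold change of -1.41. For this and the following role groups, the shares of all genes were 15.5% past the FDR lower and 5.9% past both thresholds lower. CDCA3, which targets the mitosis inhibitor WEE1 for destruction, was at 20.9, 19.7 and 21.1 FPKM in the controls, 19.5, 21.9 and 19.9 FPKM at day 3 and 5.53, 6.47 and 6.59 FPKM at day 7 (day 7 against day 3: log2 fold change -1.71, standard error 0.0932, limma adjusted p = 1.92e-07). FOXM1, the transcription factor known to drive many of the other genes, was at 43.0, 45.5 and 43.7 FPKM in the controls, 47.8, 43.5 and 46.1 FPKM at day 3 and 14.6, 14.5 and 15.5 FPKM at day 7 (log2 fold change -1.61, standard error 0.0719, limma adjusted p = 4.76e-08). Controls and day 3 overlapped in both genes, and all libraries of day 7 were far below them. CCNB1 and CCNB2, the B-type cyclins that bind CDK1, fell to 35.6% ± 1.77 and 34.2% ± 0.609 of their day 3 means (SD, n = 3 each), and CCNA2, cyclin A, fell to 42.3% ± 2.62. CDC25C, the phosphatase that switches CDK1 on, fell to 37.0% ± 5.08. CDK1 itself changed least of the 9. It was at 31.1, 29.4 and 26 FPKM in the controls, 28.2, 29 and 28.4 FPKM at day 3 and 18.9, 18.6 and 20.3 FPKM at day 7 (log2 fold change -0.56, standard error 0.084, limma adjusted p = 0.000266), and thus kept 67.6% ± 3.24 of its day 3 mean. The CDK-binding adaptors CKS1B and CKS2 had log2 fold changes of -1.07 and -0.75.

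The anaphase-promoting complex ends mitosis by marking cyclins and securin for destruction, and the list held its activator CDC20 and its ubiquitin-conjugating enzyme UBE2C. Both were lower past the FDR and CDC20 alone passed the fold threshold. CDC20 stood at 75.9, 74.0 and 90.3 FPKM in the controls, 79.0, 77.2 and 70.8 FPKM at day 3 and 19.4, 18.8 and 18.8 FPKM at day 7 (log2 fold change -1.98, standard error 0.0884, limma adjusted p = 4.76e-08). At 25.1% ± 0.472 of its day 3 mean, its change was exceeded only by that of ANLN among the 48. UBE2C was at 59.2, 57.2 and 60.2 FPKM in the controls, 54.3, 54.0 and 54.9 FPKM at day 3 and 27.0, 29.1 and 31.6 FPKM at day 7 (log2 fold change -0.90, standard error 0.0745, limma adjusted p = 3.91e-06). The day 7 libraries of CDC20 were nearly equal, and those of UBE2C spread more.

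Of the mitotic kinases and chromosomal passenger proteins, 6 of 6 fell past both thresholds, with a median of -1.47. PLK1, the polo-like kinase that matures centrosomes and kinetochores, was at 43.9, 41.2 and 42.3 FPKM in the controls, 43.5, 42.0 and 42.5 FPKM at day 3 and 9.99, 13.1 and 13.3 FPKM at day 7 (log2 fold change -1.82, standard error 0.105, limma adjusted p = 2.90e-07). AURKB, the kinase of the passenger complex, had the least negative change of the 6. It was at 46.7, 54.2 and 54.3 FPKM in the controls, 49.98, 50.04 and 42.9 FPKM at day 3 and 17.7, 19.5 and 21.3 FPKM at day 7 (log2 fold change -1.29, standard error 0.1, limma adjusted p = 2.45e-06). In both genes all libraries of day 7 were far below day 3, with PLK1 replicate 1 the lowest of its 3. The passenger subunits CDCA8 (borealin) and BIRC5 (survivin) had log2 fold changes of -1.55 and -1.39. AURKA, the kinase of spindle poles, and NEK2, which separates centrosomes, had -1.43 and -1.51.

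Of the 4 spindle checkpoint genes, which hold the cell until every kinetochore is attached, 4 were lower past the FDR and 3 fell more than 2-fold. BUB1B, which encodes the checkpoint protein BubR1, was at 22.5, 22.4 and 17.8 FPKM in the controls, 17.9, 19.7 and 18.5 FPKM at day 3 and 6.01, 6.39 and 5.51 FPKM at day 7 (log2 fold change -1.63, standard error 0.108, limma adjusted p = 7.35e-07). Its reads may be shared with the read-through entry BUB1B-PAK6 on the same strand. TTK, the kinase MPS1 that starts checkpoint signalling, was at 24.1, 23.7 and 17.5 FPKM in the controls, 18.3, 19.8 and 19.0 FPKM at day 3 and 10.2, 11.8 and 12.4 FPKM at day 7 (log2 fold change -0.73, standard error 0.127, limma adjusted p = 0.000738). BUB1 had a log2 fold change of -1.36 and MAD2L1 one of -1.11. The day 7 libraries of TTK kept 60.1% ± 5.98 of the day 3 level, where those of BUB1B kept 31.9% ± 2.37.

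The 6 kinetochore and centromere genes were all lower past the FDR and 5 passed the fold threshold, with a median of -1.16. CENPE, the kinesin that carries chromosomes to the spindle equator, was at 9.39, 9.12 and 6.20 FPKM in the controls, 6.84, 6.75 and 6.28 FPKM at day 3 and 2.31, 2.64 and 2.06 FPKM at day 7 (log2 fold change -1.47, standard error 0.16, limma adjusted p = 2.76e-05). NDC80, the microtubule-binding core of the kinetochore, was at 30.0, 28.6 and 23.0 FPKM in the controls, 24.6, 26.2 and 25.8 FPKM at day 3 and 15.3, 14.8 and 15.7 FPKM at day 7 (log2 fold change -0.74, standard error 0.1, limma adjusted p = 0.000133). NUF2 pairs with NDC80 in one complex, and it was at 45.7% ± 1.74 of its day 3 mean where NDC80 was at 59.7% ± 1.81. CENPA, the histone that marks centromeres, and its loader HJURP had near-equal changes of -1.20 and -1.19. CENPF had -1.14, with a standard error of 0.148.

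Mitotic kinesins move along spindle microtubules, and of the 5 in the list 5 were lower past the FDR and 3 fell more than 2-fold. KIF20A, which works in the central spindle at cytokinesis, was at 41.4, 40.5 and 34.0 FPKM in the controls, 34.7, 37.0 and 36.4 FPKM at day 3 and 9.89, 10.1 and 9.08 FPKM at day 7 (log2 fold change -1.88, standard error 0.0918, limma adjusted p = 8.50e-08). KIF11, the Eg5 motor that pushes spindle poles apart, was at 23.0, 22.4 and 18.3 FPKM in the controls, 21.5, 21.6 and 20.6 FPKM at day 3 and 14.7, 13.1 and 12.3 FPKM at day 7 (log2 fold change -0.67, standard error 0.104, limma adjusted p = 0.000355). The first kept 26.9% ± 1.53 of its day 3 level and the second 62.8% ± 5.66, and the printed windows show a CHR match in KIF11 and none in KIF20A. KIF23 and KIF2C fell by 1.19 and 1.12 on the log2 scale, and KIF20B had a log2 fold change of -0.77.

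**Figure D4:**
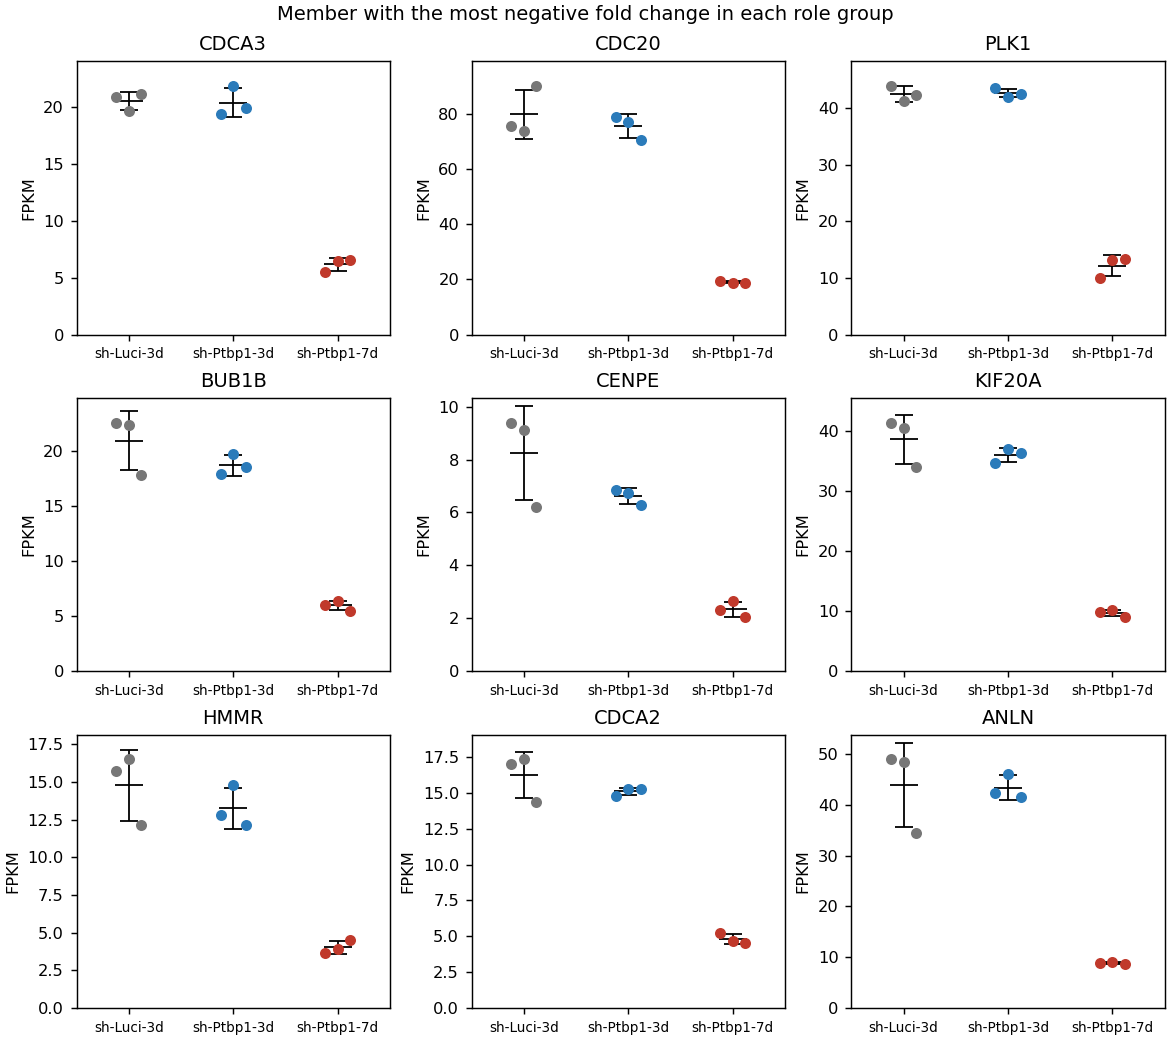
FPKM in each library (points) with the group mean and SD (black, n = 3) for the gene with the most negative change at day 7 against day 3 in each of the 9 role groups. In every panel the 3 points of sh-Ptbp1-7d lie below all 6 points of day 3, and sh-Luci-3d replicate 3 (the right-hand grey point) lies below the other controls for BUB1B, CENPE, KIF20A, HMMR, CDCA2 and ANLN and above them for CDC20 and CDCA3.

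Spindle assembly proteins differed widely in how far they changed, from -1.69 for HMMR to -0.37 for CKAP2. Of 8, 7 were lower past the FDR and 5 fell more than 2-fold, with a median of -1.19. HMMR, which helps to organise spindle poles, was at 15.7, 16.5 and 12.1 FPKM in the controls, 12.8, 14.8 and 12.1 FPKM at day 3 and 3.68, 3.88 and 4.51 FPKM at day 7 (log2 fold change -1.69, standard error 0.135, limma adjusted p = 2.94e-06). DLGAP5 reached 31.1% ± 0.802 of its day 3 mean and TPX2, the activator of AURKA, 42.1% ± 1.39. CKAP2, a microtubule-stabilising protein, did not pass the FDR. It was at 25.6, 25.3 and 18.0 FPKM in the controls, 21.4, 21.2 and 21.3 FPKM at day 3 and 16, 16.6 and 16.8 FPKM at day 7 (log2 fold change -0.37, standard error 0.122, limma adjusted p = 0.027), and day 7 lay below day 3 without overlap. Its call turned in 3 of 20 alternatives, among them the fit without sh-Luci-3d replicate 3, with a limma adjusted p of 0.000241. TACC3 and CKAP2L, at -0.74 and -0.60, passed the FDR and not the fold threshold, and GTSE1 had -1.13. NUSAP1, which bundles microtubules around chromosomes, was at 44.2, 50.8 and 42.1 FPKM in the controls, 42.9, 49.1 and 45.4 FPKM at day 3 and 17.2, 18.9 and 9.37 FPKM at day 7 (log2 fold change -1.65, standard error 0.213, limma adjusted p = 9.42e-05). In NUSAP1 the third library of day 7 was far below the other two, and its standard error was the widest of the 48.

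In the chromosome structure group, 4 of 5 genes were lower past the FDR and 3 fell more than 2-fold. CDCA2, which recruits protein phosphatase 1 to chromosomes at anaphase, was at 17.0, 17.3 and 14.4 FPKM in the controls, 14.8, 15.2 and 15.2 FPKM at day 3 and 5.20, 4.65 and 4.52 FPKM at day 7 (log2 fold change -1.64, standard error 0.0983, limma adjusted p = 3.73e-07). MKI67 was at 8.33, 8.72 and 6.94 FPKM at day 7 (log2 fold change -1.15, standard error 0.114, limma adjusted p = 1.44e-05), and TOP2A at 33.9, 35.0 and 29.8 FPKM (log2 fold change -0.73, standard error 0.102, limma adjusted p = 0.00017). The condensin subunits were far apart. NCAPD2, of condensin I, fell to 47.2% ± 3.36 of its day 3 mean, while SMC4, which both condensins share, did not pass the FDR of 0.01. It was at 46.4, 46.0 and 32.9 FPKM in the controls, 36.2, 40.7 and 35.0 FPKM at day 3 and 30.1, 31.2 and 26.3 FPKM at day 7 (log2 fold change -0.35, standard error 0.133, limma adjusted p = 0.0468). Without sh-Luci-3d replicate 3 its limma adjusted p was 0.00427, past the FDR, one of 2 alternatives of 20 that turned its call.

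Cytokinesis closes division, and the 3 genes of this role all fell more than 2-fold, with a median of -1.5. ANLN, the anillin scaffold of the contractile ring, had the most negative change of the 48. It was at 49.0, 48.5 and 34.5 FPKM in the controls, 42.4, 46.2 and 41.5 FPKM at day 3 and 8.82, 9.07 and 8.73 FPKM at day 7 (log2 fold change -2.28, standard error 0.125, limma adjusted p = 1.97e-07). The day 7 libraries were within a narrow range at 20.4% ± 0.404 of the day 3 mean (SD, n = 3). ECT2, which activates RhoA at the cleavage site, was at 39.8, 39.2 and 29.6 FPKM in the controls, 35.7, 36.8 and 33.7 FPKM at day 3 and 14, 15.0 and 15.0 FPKM at day 7 (log2 fold change -1.26, standard error 0.111, limma adjusted p = 5.55e-06). PRC1, which bundles the central spindle, was at 34.8, 39.3 and 35.7 FPKM in the controls, 28.9, 40.5 and 39.2 FPKM at day 3 and 13.2, 14.4 and 10.5 FPKM at day 7 (log2 fold change -1.5, standard error 0.145, limma adjusted p = 1.12e-05). Its first library of day 3 was below the other two, yet above every library of day 7.

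ANLN lies on chromosome 7 from 36389806 to 36453791 (GRCh38, GENCODE v29), CDC20 on chromosome 1 from 43358955 to 43363203 and KIF20A on chromosome 5 from 138178719 to 138187715. For 12 of the 48 genes, among them ANLN, CDCA3, KIF20A, PLK1 and SMC4, a gene on the opposite strand that is also in the table overlaps the locus, and whether reads were counted by strand is not given in the sources used here. Pseudogenes named after 12 of the 48, 6 of them for CKS1B and 4 for UBE2C, could also share reads, and the levels of these genes are uncertain to that extent.

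The third comparison set the knockdown cells of day 7 against the control cells of day 3, and it shares the libraries of day 7 with the second and the controls with the first. All 48 log2 fold changes were negative, against 43.3% of all genes. All 48 passed the FDR of 0.01 and 35 passed both thresholds, against 15% and 5.68% of all genes lower. No overlap was seen for 48 of 48, against 23.1% of all genes lower. Their median was -1.34, against 0.10 for all genes, and ran from -2.28 (ANLN) to -0.46 (CKAP2). DLGAP5 was at -1.91 against -1.67 in the second comparison, CENPE at -1.76 against -1.47, and MKI67 at -1.44 against -1.15. MAD2L1 and CKS1B, at -0.97 and -0.87, passed the fold threshold in the second comparison and not in this one, and UBE2C, at -1.01, did the reverse. SMC4 was at -0.50 and CKAP2 at -0.46, with limma adjusted p-values of 0.00961 and 0.00949. Each of them missed the FDR in 13 of 20 alternatives, with adjusted p-values up to 0.0421 for SMC4 and 0.0404 for CKAP2.

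Other genes of the same processes were set beside the 48, again for day 7 against day 3. Taken from 4 lists of further kinetochore, condensin, kinesin, spindle and mitotic regulator genes, 73 were tested. Of these 25 passed both thresholds and 48 passed the FDR on the lower side, 1 passed the FDR on the higher side, and the median was -0.67. The shares of all genes were 5.9% past both thresholds lower, 15.5% past the FDR lower and 20.3% past the FDR higher. The 13 further mitotic kinesins and spindle proteins had 6 past both thresholds and 12 past the FDR, with a median of -0.95, from FAM83D at -1.63 to KIF15 at -0.42. Among 22 further regulators and cytokinesis genes, 9 passed both, with a median of -0.90, from CEP55, the midbody protein, at 35.5, 36.6 and 33.4 FPKM at day 3 and 8.98, 9.57 and 8.97 FPKM at day 7, to WEE1, the kinase that holds CDK1 off, at 0.29. For the 6 other condensin subunits 3 passed both, with NCAPG2 at -1.38 and NCAPH2 at 0.22.

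The 32 other kinetochore and centromere subunits had a median of -0.39, and 7 passed both thresholds (21.9%, against 5.9% of all genes). CENPW, a subunit of the inner kinetochore, was at 11.4, 11.7 and 9.72 FPKM at day 3 and 2.25, 1.5 and 2.69 FPKM at day 7 (log2 fold change -2.33, standard error 0.178, limma adjusted p = 2.12e-06), next to -2.28 for ANLN. MIS12, of the outer kinetochore, was the one gene of the list past the FDR on the higher side, at 6.42, 7.17 and 5.35 FPKM at day 3 and 10.6, 10.3 and 10.8 FPKM at day 7 (log2 fold change 0.75, standard error 0.114, limma adjusted p = 0.000316). These subunits thus held values on both sides of 0.

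Machinery that also works outside mitosis was listed too. Beside its counts, 5.9% of all genes passed both thresholds lower, 15.5% passed the FDR lower and 20.3% passed it higher. The share past both thresholds lower was 6.67% in the anaphase-promoting complex list and 9.76% in the DNA replication list. Cohesin and its loader had a median of -0.004 over 10 genes, with 0 past both thresholds, 1 past the FDR lower (SMC1A, -0.61) and 2 higher (MAU2 at 0.88 the highest). The gamma-tubulin ring complex had a median of -0.07 over 8 genes, with 2 past the FDR lower and TUBG1 at -0.86. Among 14 core subunits of the anaphase-promoting complex and its second ubiquitin-conjugating enzyme UBE2S the median was -0.29 and 1 passed both thresholds, ANAPC15, at 27.6, 24.5 and 23.1 FPKM at day 3 and 5.26, 4.46 and 5.90 FPKM at day 7 (log2 fold change -2.25, standard error 0.109, limma adjusted p = 8.43e-08). ANAPC13 was the most positive, at 0.55. DNA replication genes, which act in S phase, had a median of -0.56 over 41 genes, with 4 past both thresholds and 26 past the FDR lower, from MCM5 at -1.11 to RFC1 at 0.62.

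**Figure D5:**
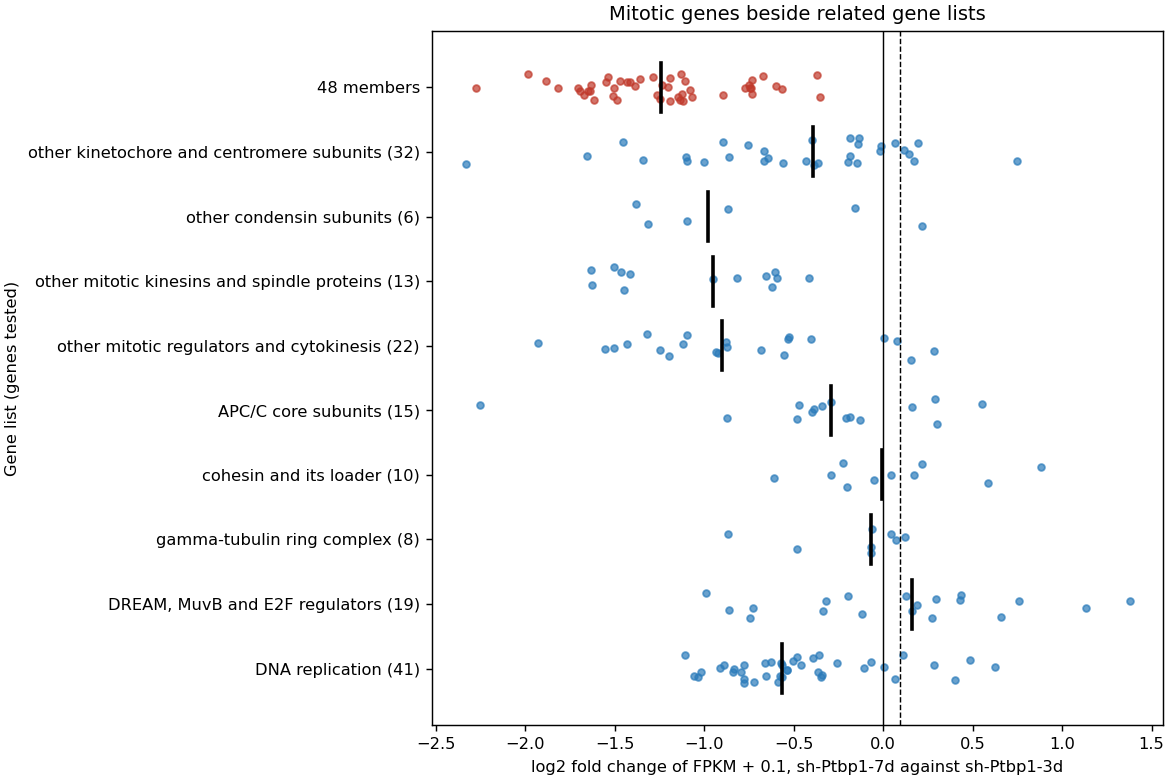
Log2 fold changes of the knockdown cells at day 7 against day 3 for the 48 mitotic genes (red) and for 9 lists of related genes (blue), one point per gene, with black bars for the list medians and a dashed line for the median of all 15551 genes tested. The 48 genes have a median of -1.24 and lie wholly below 0, the 4 mitotic lists below them are mostly negative, and cohesin, the gamma-tubulin ring complex and the DREAM, MuvB and E2F regulators spread to both sides of 0. The points of the anaphase-promoting complex include UBE2S, and those of the DREAM list include CDKN1A.

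The last list held 18 DREAM, MuvB and E2F genes, whose products act on such promoters, and the CDK inhibitor gene CDKN1A. Of these 19, 0 passed both thresholds on the lower side and 2 on the higher side, CDKN1A being one of the 2. The FDR was passed by 5 lower and 5 higher, beside 15.5% and 20.3% of all genes, and the median was 0.16. MYBL2, which encodes B-MYB, was at 17.7, 15.4 and 16.3 FPKM at day 3 and 8.73, 7.53 and 8.45 FPKM at day 7 (log2 fold change -0.99, standard error 0.119, limma adjusted p = 5.75e-05), just short of the fold threshold. It passed both thresholds lower in several alternatives, among them median-ratio scaling (log2 fold change -1.06) and quantile normalization (-1.08). FOXM1, one of the 48, had -1.61. Of the 2 that rose past both thresholds, E2F5, a repressor E2F, was at 4.43, 4.05 and 4.03 FPKM and 10.9, 10.1 and 12 FPKM (log2 fold change 1.38, standard error 0.105, limma adjusted p = 2.06e-06), and CDKN1A, the CDK inhibitor p21, was at 38.1, 35.8 and 32.4 FPKM and 77.3, 80.6 and 75.1 FPKM (log2 fold change 1.13, standard error 0.107, limma adjusted p = 9.76e-06). Of the genes with values per library, CDKN1A, FOXM1, NUSAP1 and PRC1 were chosen after their values were seen. The same holds for the read-through entry at the NUSAP1 locus and, among the markers, for MAP2, STMN2, DCX and FABP7.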

How the data were processed

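Total RNA of U251 cells was sequenced by the authors, who deposited FPKM values per gene and library. The submitters' processing notes name HISAT2 and GRCh38, and the counting program is not given in the sources used here. The values carry no steps of whole reads (1.17% of low values within 0.5% of 1 shared ratio between libraries), so depth is unknown and no count model was run. A second deposited table, with positions of assembled loci and no expression values, had no use here.

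Genes averaging 0.1 FPKM or more over the libraries (15551) were taken to the log2(FPKM + 0.1) scale. One limma model (version 3.58.1, R 4.3.3) held the 3 groups, with an intensity trend, and its p-values were Benjamini-Hochberg adjusted across every tested gene. Fold changes are on the log2(FPKM + 0.1) scale, which understates those of low genes. The thresholds followed the study's methods, with an FDR below 0.05 for the knockdown at day 3 against the controls and below 0.01 for day 7 against day 3. The study gives none for day 7 against the controls, where 0.01 was chosen here. For 3 libraries against 3, the smallest two-sided p of an exact permutation test is 0.1. The labels do not say whether replicates came from separate cultures, so p-values measure the spread between these libraries, which may be technical.

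The 48 genes, their roles and the other lists were chosen with earlier results of these data known. Named by rule were, in each role group and each other list, the genes with the most and the least negative change of the knockdown cells from day 3 to day 7, genes not past the FDR, the 3 smallest p-values at day 3, and PTBP1. Alternatives were other pseudocounts, filters and scalings, a replicate block, fits without one library and, chosen after seeing the data, a spline correction for transcript length. Positions are from GENCODE v29 and promoters from RefSeq (GRCh38.p14). UBE2C, BIRC5, AURKA, TTK, TPX2, CDCA2 and FOXM1 had no entry. Plots used Python 3.11.15 and matplotlib 3.10.9.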

Additional observations from a re-analysis of the deposited data

How the results depend on the processing

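The limma results (counts, medians and fold changes) were recomputed under 20 alternatives, 9 of which left out one library. Summed levels, motif shares and rank correlations were not. In both comparisons with sh-Ptbp1-7d, all 48 genes kept a negative log2 fold change under each of them. The count of the 48 past both thresholds for day 7 against day 3 of the knockdown lay between 34 (TPM) and 36. It was 36 in each of the 9 fits without one library. All genes past both thresholds lower numbered 819 of 16742 under TPM and 831 to 923 in those 9 fits. The median of the 48 lay between -1.31 (median-ratio scaling) and -1.14 (TPM). Past the FDR alone, the count of the 48 lay between 45 and 48 over the fits without one library. It was 48 when sh-Luci-3d replicate 3 was left out. All genes past the FDR lower numbered 1827 to 2949 in these fits, with 2949 when that library was left out. Calls on both thresholds turned for genes near the fold threshold, among them UBE2C, NCAPD2, CKS1B and MAD2L1 and, outside the 48, MYBL2. Calls on the FDR turned, among the 48, for CKAP2, SMC4 and KIF20B. In the knockdown at day 3 against the controls, the count of the 48 past the FDR and lower ran from 0 to 6 over the fits without one library. It was 6 when sh-Luci-3d replicate 3 was left out, where 211 of all genes passed the FDR lower and 782 higher. The replicate numbers did not pair the samples (correlations of same-numbered deviations between -0.03 and 0.05 over 9 pairs). With the replicate number as a block, 36 and 46 of the 48 passed both thresholds and the FDR for day 7 against day 3 of the knockdown, the same counts as without it, and 892 of all genes passed both thresholds lower instead of 918. Over all genes, a pseudocount of 1 gave 563 lower and 692 higher in place of 918 and 1293, and quantile normalization gave 1114 lower and 1077 higher for day 7 against the controls in place of 883 and 1388. Quantile normalization moved the median of all genes for day 7 against day 3 of the knockdown from 0.09 to -0.01 and that of the 48 genes from -1.24 to -1.30. The unknown depth limits what can be said of low genes.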

Other observations

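At the NUSAP1 locus the table holds a second entry on the same strand, the read-through gene AC087721.2. In sh-Ptbp1-7d it was at 5.14, 3.85 and 10.3 FPKM, where NUSAP1 was at 17.2, 18.9 and 9.37 FPKM, and the sum of both was 22.4, 22.7 and 19.7 FPKM. The sum was more even than either entry, and in sh-Ptbp1-3d it was 47.6, 49.1 and 45.4 FPKM. The coefficient of variation of NUSAP1 in sh-Ptbp1-7d was 33.6%, against a median of 7.27% over the 48 genes.

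In sh-Luci-3d replicate 3 the ratio to the other controls fell with transcript length across the 48 genes (Spearman's rho -0.61, genes of one library and not independent replicates). The genes above both other controls included CDC20, CKS1B and BIRC5, and those below them included SMC4, CENPE and KIF20B. The part of transcript length in this was not tested.

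The median coefficient of variation over the 48 genes was 10.3% in sh-Luci-3d, 3.92% in sh-Ptbp1-3d and 7.27% in sh-Ptbp1-7d.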
